A study of Arabidopsis thaliana with 4 samples.

Results

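The transcriptome of wild-type Arabidopsis thaliana seedlings was described from the 2 Col-0 libraries of a series of 4 RNA-seq libraries. Both libraries were chosen by their labels alone, and all 33854 gene identifiers of the deposited tables were kept. Col-0 is the Columbia accession on which the Arabidopsis reference genome is based, and these plants carried no transgene. The seedlings were 12 days old and grew on MS medium, a plain mineral salt medium, at 22 °C with 16 h of light and 8 h of dark a day. The series set them against plants that express COLDAIR, a noncoding RNA from an intron of FLC, under the 35S promoter, and those 2 libraries were not used here. The labels number the Col-0 libraries as replicates 1 and 2 and do not say whether they came from separate cultures, so the spread given here may be technical. Whole seedlings were used, so a low level of a transcript in all cells and a high level in few cells cannot be told apart.

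A seedling of this age is a photosynthetic plant with cotyledons, the first true leaves, a root and a shoot apical meristem that still makes leaves. Leaf cells carry many copies of the mRNAs for the chlorophyll-binding antenna proteins and for Rubisco, the enzyme that fixes CO2. The nucleus encodes all the antenna proteins, the small subunit of Rubisco and many photosystem subunits, whereas the chloroplast genome encodes the photosystem cores and the large subunit of Rubisco. All identifiers in the tables belonged to the 5 nuclear chromosomes, and chloroplast and mitochondrial genes were not analysed here. Levels are in FPKM, fragments per kilobase of transcript scaled to the mapped fragments of the library, a scale on which genes of different length can be set side by side.

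The start regions of the 3 most abundant genes are shown first, since the results return to them and to the short motifs in such regions. They are CAB1, LHB1B2 and RBCS1A, and 2 further genes were added because they hold motifs whose frequency differed between level classes. LHCB6 was the most abundant photosynthesis gene with both a G-box (CACGTG) and an I-box (GATAAG), and AT4G27090, a ribosomal protein L14 gene, was the most abundant ribosomal protein gene with both a telo-box (AAACCCTA) and a site II core (GGGCC). Each sequence is the 250 bases before the RefSeq gene start in TAIR10.1, written 5′ to 3′ on the strand of the gene, and capitals mark the letters of a searched motif or of its reverse complement. CAB1 lies on the plus strand (chr1:10477635-10477884) and the others lie on the minus strand, LHB1B2 at chr2:14523569-14523818, RBCS1A at chr1:25049668-25049917, LHCB6 at chr1:5447881-5448130 and AT4G27090 at chr4:13595253-13595502.
CAB1: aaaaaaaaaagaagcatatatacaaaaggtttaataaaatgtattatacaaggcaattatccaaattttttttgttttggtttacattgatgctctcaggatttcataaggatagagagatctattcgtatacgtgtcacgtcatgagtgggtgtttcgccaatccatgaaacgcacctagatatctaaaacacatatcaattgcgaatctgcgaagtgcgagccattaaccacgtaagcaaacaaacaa
LHB1B2: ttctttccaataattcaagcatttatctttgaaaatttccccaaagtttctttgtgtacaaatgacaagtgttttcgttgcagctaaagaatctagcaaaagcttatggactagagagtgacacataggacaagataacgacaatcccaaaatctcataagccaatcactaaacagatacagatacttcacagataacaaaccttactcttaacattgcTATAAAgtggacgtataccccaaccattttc
RBCS1A: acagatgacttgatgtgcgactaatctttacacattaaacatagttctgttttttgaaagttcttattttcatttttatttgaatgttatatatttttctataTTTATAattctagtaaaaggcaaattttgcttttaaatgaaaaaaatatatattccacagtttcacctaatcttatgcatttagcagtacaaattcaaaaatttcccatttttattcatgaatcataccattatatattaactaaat
LHCB6: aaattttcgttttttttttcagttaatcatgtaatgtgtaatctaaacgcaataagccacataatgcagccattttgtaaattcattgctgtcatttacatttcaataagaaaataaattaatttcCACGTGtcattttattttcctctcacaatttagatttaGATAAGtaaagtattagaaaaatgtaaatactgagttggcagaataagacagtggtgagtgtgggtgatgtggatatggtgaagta
AT4G27090: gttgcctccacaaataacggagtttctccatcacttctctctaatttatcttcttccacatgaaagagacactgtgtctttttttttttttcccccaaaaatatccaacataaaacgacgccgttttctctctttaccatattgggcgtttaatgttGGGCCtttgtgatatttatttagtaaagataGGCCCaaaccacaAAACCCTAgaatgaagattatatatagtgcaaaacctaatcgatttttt
With the base before the start counted as -1, LHB1B2 held the TATA motif TATAAA from -31, and RBCS1A held its reverse complement from -147. LHCB6 had its G-box from -124 and its I-box from -86. AT4G27090 had GGGCC from -93, the reverse complement GGCCC from -62 and the telo-box from -49. CAB1, the gene with the highest level of all, held none of the 5 searched motifs in these letters.

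Few genes made up much of the measured RNA. A mean of at least 1 FPKM was reached by 19020 genes, which is 56.2% of all identifiers. At least 100 FPKM was reached by 1418 genes (4.19%) and at least 1000 FPKM by 81 genes. The mean was exactly 0 for 10673 identifiers, above 0 and under 0.1 FPKM for 1366, and between 0.1 and 1 FPKM for 2795. A further 7541 genes lay between 1 and 10 FPKM and 10061 between 10 and 100 FPKM, the class with the most genes above 0. The median over all identifiers was 2.58 FPKM, and over the genes at 1 FPKM or more it was 13.9 FPKM.

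The 2 libraries gave nearly the same counts. Replicate 1 had 22411 genes above 0 and 18925 at 1 FPKM or more, and replicate 2 had 22618 and 18990. The values summed to 951940 FPKM in replicate 1 and 928299 FPKM in replicate 2. The 10 highest genes of each library held 11.9% of the sum in replicate 1 and 10.9% in replicate 2, and the 100 highest held 31.9% and 30.5%. The 1000 highest genes held 59.1% of the sum in replicate 1 and 57.9% in replicate 2. The 81 genes with a mean of 1000 FPKM or more alone carried 30.0% and 28.6% of the sum, against 3.74% and 3.89% for the 7541 genes between 1 and 10 FPKM.

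**Figure D1:**
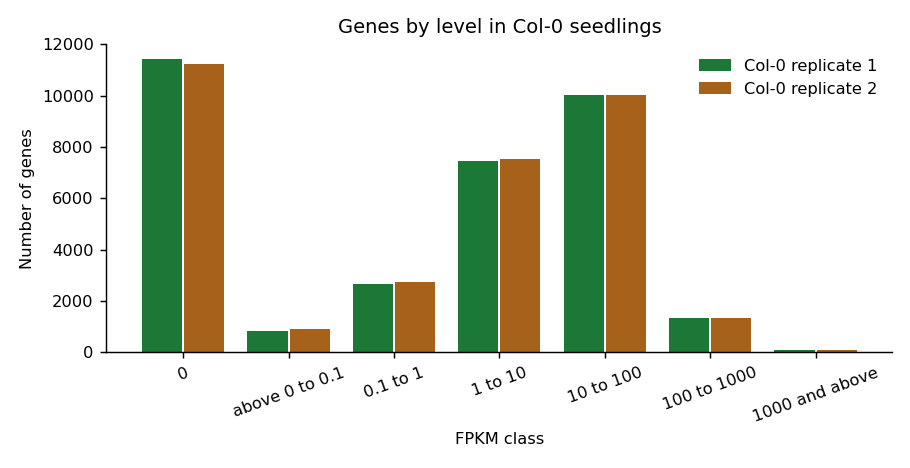
Number of genes (vertical axis) in each FPKM class (horizontal axis) in the Col-0 replicate 1 library (green) and the Col-0 replicate 2 library (brown). The class from 10 to 100 FPKM held 10040 genes in replicate 1 and 10026 in replicate 2, and the class at 0 held 11443 and 11236.

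The share of genes with a signal differed by gene type. Of 26693 protein-coding genes that matched the RefSeq annotation, 18553 (69.5%) reached 1 FPKM, and these genes held 99.2% of the summed FPKM in replicate 1 and 99.3% in replicate 2. Long noncoding RNA genes reached 1 FPKM in 140 of 224 cases, and the highest, AT3G22121, had 471 FPKM in replicate 1 and 443 in replicate 2. GUT15, another noncoding RNA gene, stood at 174 FPKM in replicate 1 and at 151 in replicate 2. None of the 623 tRNA genes had a value above 0, and none of the 71 snoRNA genes reached 1 FPKM. MicroRNA precursor genes reached 1 FPKM in 16 of 178 cases, pseudogenes in 47 of 2512 and transcribed pseudogenes in 71 of 926. The 18S ribosomal RNA gene AT3G41768 had 170 FPKM in replicate 1 and 137 in replicate 2. The RNA was caught on poly-T beads, so the values for tRNA, snoRNA and ribosomal RNA genes do not measure those RNAs in the plant. Very short genes mostly had no value in any case, as with 344 of 362 protein-coding genes under 250 bases.

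Protein-coding genes of different levels also differed in structure. The median length of the longest annotated transcript was 763 bases for the genes at 0, 1779 bases for those from 1 to 10 FPKM, 1295 bases from 100 to 1000 FPKM and 1210 bases at 1000 FPKM or more. The median coding length was 603 bases for the genes at 0, 1149 bases from 10 to 100 FPKM, 732 bases from 100 to 1000 FPKM and 726 bases at 1000 FPKM or more. Among the classes above 0 the most abundant mRNAs were thus the shortest, but the genes at 0 were shorter still. Most protein-coding genes under 250 bases were at 0 (344 of 362), and whether this is a limit of the measurement was not tested. The median number of exons was 2 for the genes at 0, 5 from 10 to 100 FPKM and 3 at 1000 FPKM or more. Single-exon genes made up 36.9% of the genes at 0 and 11.1% of those from 10 to 100 FPKM. By chromosome, the share of protein-coding genes at 1 FPKM or more ranged only between 67.4% on chromosome 2 and 70.3% on chromosome 5. Protein-coding genes of chromosome 1 held 30.3% of the summed FPKM in replicate 1 and 29.9% in replicate 2, with CAB1, CAB2, CAB3 and RBCS1A all on it. Chromosome 1 also holds the most protein-coding genes, 6970 of 26693.

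Photosynthesis led the transcriptome. All of the 20 most abundant genes belonged to the 7 photosynthesis lists, as did 43 of the top 50 and 61 of the top 100. Together the 81 nuclear genes of these lists held 27.6% of the summed FPKM in replicate 1 and 26.0% in replicate 2. All 81 reached at least 1 FPKM, beside 56.2% of all identifiers. The top 20 of the 2 libraries, ranked apart, shared 18 genes, and none of the top 500 had a transcript shorter than 300 bases.

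**Figure D2:**
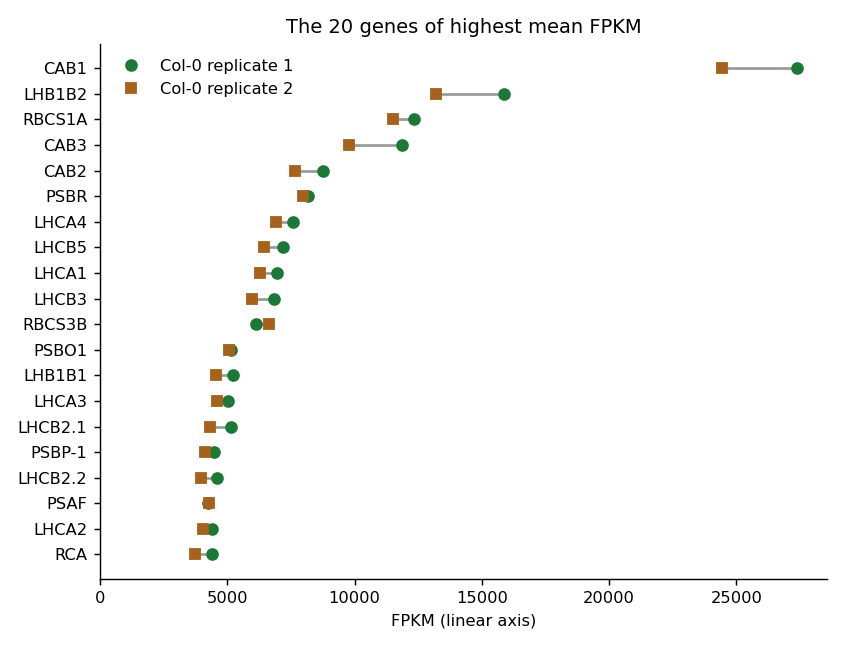
FPKM (horizontal linear axis) of the 20 genes with the highest mean, in the Col-0 replicate 1 library (green circles) and the Col-0 replicate 2 library (brown squares), joined by a grey line. CAB1 stood apart at 27398 and 24429 FPKM, and the last gene, RCA, had 4390 and 3746 FPKM.

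CAB1 (AT1G29930), which encodes a light-harvesting chlorophyll a/b protein of photosystem II (LHCB1), had 27398 FPKM in replicate 1 and 24429 FPKM in replicate 2. It was 2.88% of all FPKM in replicate 1 and 2.63% in replicate 2. LHB1B2 (AT2G34420), another LHCB1 gene, followed with 15853 and 13196 FPKM. RBCS1A (AT1G67090), a gene for the Rubisco small subunit, had 12334 and 11507 FPKM. CAB3 (AT1G29910) had 11866 and 9783 FPKM, and CAB2 (AT1G29920) had 8762 and 7662 FPKM, both also LHCB1 genes. The values of these 5 genes did not overlap between neighbours in the order, except for RBCS1A and CAB3.

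The 5 LHCB1 genes held 64.9% of the FPKM of the 14 antenna genes of photosystem II in replicate 1 and 64.7% in replicate 2. CAB1 alone was 39.6% of LHCB1 in replicate 1 and 41.0% in replicate 2. CAB1, CAB2 and CAB3 lie side by side on chromosome 1 between positions 10472280 and 10479114, and LHB1B1 and LHB1B2 lie side by side on chromosome 2 between 14522524 and 14525918. These copies are near-identical in their coding sequence, and how reads that fit several copies were shared among them is not given in the sources used here, so the split within LHCB1 is less certain than its sum. That sum came to 69114 FPKM in replicate 1 and 59641 in replicate 2.

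The LHCB2 to LHCB6 genes of photosystem II were lower than CAB1, CAB2 and CAB3. LHCB5, a minor antenna protein, and LHCB3, of the major trimers, had means of 6808 ± 540 and 6398 ± 609 FPKM (SD, n = 2), and their values overlapped. LHCB6 had 4156 FPKM in replicate 1 and 3405 FPKM in replicate 2. LHCB2.1, LHCB2.2 and LHCB2.3 had means of 4742, 4281 and 2167 FPKM. LHCB4.3 stood far below its list at 10.6 FPKM in both replicates, while its relatives LHCB4.1 and LHCB4.2 had means of 3793 and 3016 FPKM. The median of the 14 genes was 4823 FPKM.

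The antenna of photosystem I showed a similar break. LHCA4, LHCA1, LHCA3 and LHCA2, the main antenna proteins of photosystem I, had means of 7255, 6610, 4793 and 4221 FPKM. LHCA5 and LHCA6, which link photosystem I to the NADH dehydrogenase-like complex, had 181 and 141 FPKM in replicate 1 and 162 and 130 FPKM in replicate 2. All 6 were higher in replicate 1.

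The subunits of the photosystems covered a narrower range. The 12 nuclear photosystem I genes lay between 1328 FPKM for PSAE-2 and 4247 FPKM for PSAF, with a median of 3404 FPKM. The 11 photosystem II genes lay between 1254 FPKM for PSBO2 and 8087 FPKM for PSBR, with a median of 2994 FPKM. PSBO1, which holds the oxygen-evolving manganese cluster in place, had 5156 and 5054 FPKM and exceeded its paralog PSBO2 by 4.14 times in replicate 1 and 4.01 times in replicate 2. PSBS, the sensor of excess light, was among the lowest of its list at 1437 and 1395 FPKM. PSAD-1 exceeded PSAD-2 by 2.28 and 2.05 times, and PSAE-1 exceeded PSAE-2 by 2.82 and 2.78 times. In each of these pairs 1 copy led in both libraries.

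Electron carriers and the Calvin cycle came next. DRT112, the main plastocyanin gene, had 3755 FPKM in replicate 1 and 3511 FPKM in replicate 2, against 414 and 464 FPKM for PETE1, the other plastocyanin gene. FD2, the main leaf ferredoxin, had 1319 and 1334 FPKM and FD1 had 424 and 369 FPKM. FNR1 and FNR2, the reductases that ferredoxin feeds, could not be ordered: FNR2 had 615 FPKM in replicate 1 and 757 FPKM in replicate 2, and FNR1 had 625 and 663 FPKM. Among the 4 RBCS genes RBCS1A held 55.5% of the FPKM in replicate 1 and 51.6% in replicate 2. RBCS3B held 27.6% and 29.7%, RBCS2B 12.0% and 14.6%, and RBCS1B 4.90% and 4.09%. The order was the same in both libraries, although RBCS1B, RBCS2B and RBCS3B lie together on chromosome 5 and share much of their sequence. RCA, the activase that restarts Rubisco, had 4390 and 3746 FPKM. The other genes of the list lay between 320 FPKM for CP12-2 and 1932 FPKM for CA1, and the median of all 19 was 999.9 FPKM. The 10 photorespiration genes lay between 354 FPKM for GOX2 and 1123 FPKM for GGT1.

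Outside the photosynthesis lists, the most abundant genes were the metallothionein genes MT3 (2888 and 2552 FPKM) and MT2B (2742 and 2586 FPKM). CRD1, a cyclase of chlorophyll synthesis, followed with 1924 and 1904 FPKM. TGG1, a myrosinase that breaks down glucosinolates in guard and myrosin cells, had 1839 and 1728 FPKM. Next came the dehydrin family gene AT1G54410 (1705 and 1833 FPKM), TCTP (1759 and 1652 FPKM) and CCL (1450 and 1947 FPKM). This group was picked after the values were seen. Ribosomal protein genes were numerous rather than extreme, with 2 in the top 100 and 126 in the top 500. Of 374 genes whose product name speaks of a ribosomal protein, 340 reached 1 FPKM and 197 reached 100 FPKM, beside 4.19% of all identifiers. Their median was 120 FPKM and they held 7.57% of the summed FPKM in replicate 1 and 7.30% in replicate 2. The highest were SSR16 (953 and 935 FPKM) and AT4G27090 (932 and 897 FPKM). Histone genes, named in the same way, reached 1 FPKM in 45 of 49 cases with a median of 79.4 FPKM. The highest histone gene was AT4G40040 at 484 FPKM in both libraries.

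**Figure D3:**
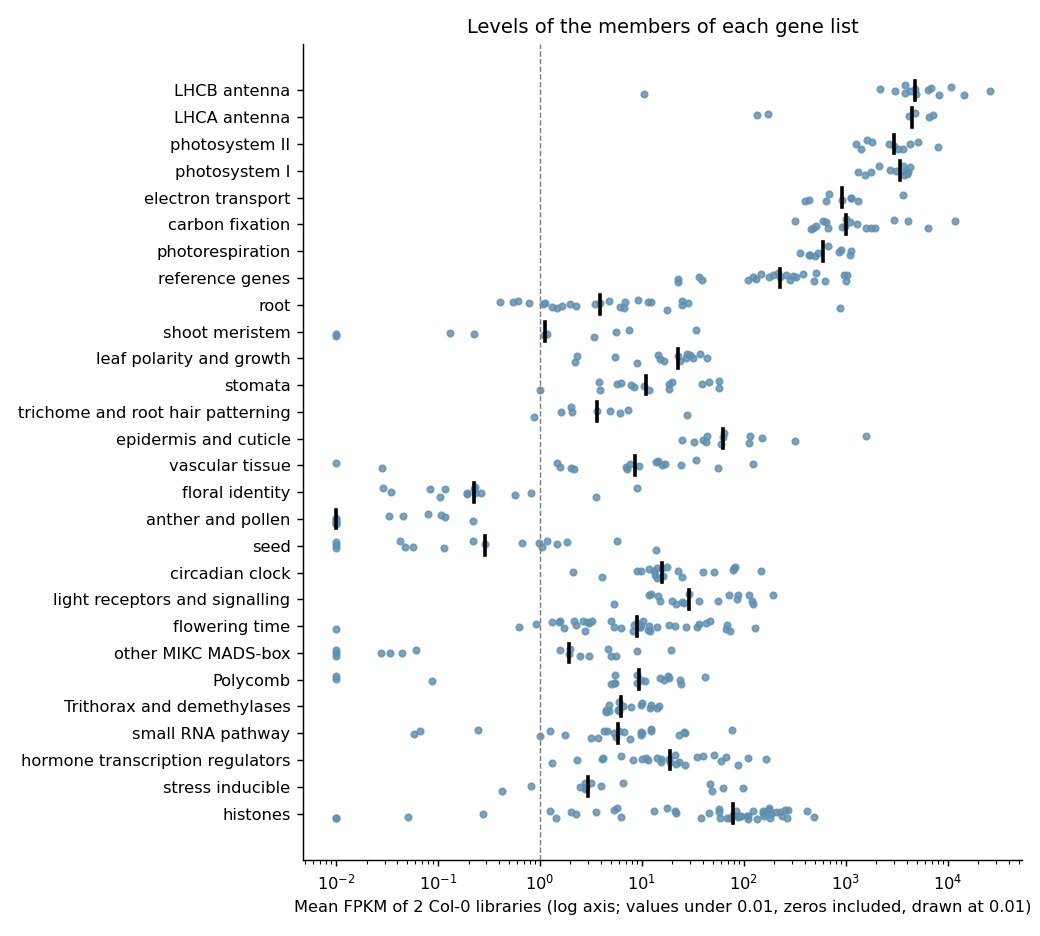
Mean FPKM over the 2 Col-0 libraries (horizontal log axis) of every member of 28 of the 29 gene lists (rows), with the ribosomal protein list left out for its size. Each point is a gene, a black bar is the list's median, the dashed line is 1 FPKM and values under 0.01 are drawn at 0.01. The lists of photosynthesis genes sit at the right, with medians between 605 and 4823 FPKM, and the medians of the floral, anther and seed lists lie below 1 FPKM, with 2 floral and 6 seed genes above it.

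Genes used as references in expression work covered a wide range of levels. All 23 reached 1 FPKM, with a median of 227 FPKM. AT5G60390, an elongation factor 1-alpha gene, GAPC2 and UBQ10 were highest with means of 1037, 1018 and 957 FPKM. ACT2 and ACT7, the main vegetative actin genes, had means of 304 and 287 FPKM. PP2AA3, a phosphatase 2A scaffold gene, was far lower with 39.97 FPKM in replicate 1 and 37.4 FPKM in replicate 2. AT4G34270 (the TIP41-like gene) and MON1 were lowest, both between 22.1 and 22.9 FPKM in the 2 libraries.

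Root genes were present at low levels. Of 25 root genes, 21 reached 1 FPKM (84%), beside 56.2% of all identifiers and 69.5% of protein-coding genes. The same shares apply beside the counts of the other lists. The root median was 3.88 FPKM, beside 2.58 FPKM over all identifiers and 13.9 FPKM over genes at 1 FPKM or more. Among the root genes 1 stood far above the rest. PYK10, the abundant beta-glucosidase of root endoplasmic reticulum bodies, had 919 FPKM in replicate 1 and 861 FPKM in replicate 2. CASP1, which builds the Casparian strip of the endodermis, had 24.0 and 26.2 FPKM. SCR and SHR, the regulators of root radial patterning, had means of 17.7 and 9.17 FPKM. The root tip genes were lower still. WOX5, active in the quiescent centre, had 1.19 and 1.76 FPKM, PLT1 had 0.721 and 1.44 FPKM, and SMB, a root cap regulator, had 1.06 and 1.57 FPKM. In 18 of the 25 root genes replicate 2 was the higher library, while of all genes between 1 and 10 FPKM and above 0 in both 48.0% were higher in replicate 1. IRT1, the iron transporter of the root epidermis, went the other way with 17.2 FPKM in replicate 1 and 7.43 in replicate 2.

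Of 10 shoot meristem genes 6 reached 1 FPKM (60%), beside 56.2% of all identifiers and 69.5% of protein-coding genes. The median of the 10 was 1.13 FPKM, beside 2.58 FPKM over all identifiers. STM, which keeps meristem cells undifferentiated, had 3.49 and 3.32 FPKM. WUS and CLV3, which are expressed in a few cells at the centre of the meristem, were listed at 0 in both libraries. CLV1, the receptor of the CLV3 peptide, had 33.3 and 35.1 FPKM. Leaf genes were higher. All 15 leaf polarity and growth genes reached 1 FPKM with a median of 22.6 FPKM, led by FIL (47.7 and 40.1 FPKM) and TCP2 (36.0 and 38.5 FPKM).

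The epidermis was well represented. All 13 epidermis and cuticle genes reached 1 FPKM with a median of 63.2 FPKM. LP1, a lipid transfer protein, was highest at 1713 and 1472 FPKM. The epidermal regulators ATML1 and PDF2 had means of 40.1 and 44.0 FPKM. All 16 stomatal genes also reached 1 FPKM by their mean. Their order followed no single stage of the lineage. ER, a receptor kinase, and STOMAGEN, a peptide from the mesophyll that promotes stomata, had means of 57.9 and 57.0 FPKM. SPCH, which starts the lineage, had 8.85 and 6.90 FPKM, and FAMA, which ends it, had 13.4 and 10.03 FPKM. MUTE, which acts briefly between them, was lowest, with 0.509 FPKM in replicate 1 and 1.52 in replicate 2. Trichome and root hair patterning genes reached 1 FPKM in 8 of 9 cases with a median of 3.61 FPKM. TTG1, a scaffold of the patterning complex, led with 28.9 and 26.4 FPKM, and GL3, a bHLH partner, was lowest with 0.976 and 0.774 FPKM. Vascular genes reached 1 FPKM in 16 of 18 cases. SUC2, the sucrose transporter of phloem companion cells, led with 120 and 124 FPKM, XCP2, a protease of dying xylem vessels, had 58.2 and 54.5 FPKM, and the secondary wall regulator NST1 was listed at 0.

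The label of seedling was checked against genes of organs that a seedling lacks, and floral and pollen genes were near 0. Of 15 floral identity genes, SEP4 (9.18 and 8.78 FPKM) and SEP3 (4.72 and 2.42 FPKM) had a mean above 1 FPKM. AP1, the marker of floral meristems, had 0.238 and 0.226 FPKM, and AG, which specifies stamens and carpels, had 0.287 and 0.170 FPKM. None of 13 anther and pollen genes reached 1 FPKM, 7 were listed at 0, and the highest, VGD1, had 0.0922 and 0.351 FPKM. The seed list was not as silent, with 6 of 17 genes at a mean of 1 FPKM or more (35.3%). That share lies below the 56.2% of all identifiers, and the median of the list was 0.292 FPKM. CRA1, a gene for the seed storage protein cruciferin, had 22.0 FPKM in replicate 1 and 5.604 FPKM in replicate 2. CRU3, another cruciferin gene, had 9.49 and 1.88 FPKM. All 14 seed genes with a value above 0 were higher in replicate 1, beside 50.8% of all genes that reached 1 FPKM. Some of the 14 lie near the smallest values above 0, such as LEC2 with 0.0435 and 0.0413 FPKM, so their direction says little. The list summed to 44.1 FPKM in replicate 1 and 10.8 FPKM in replicate 2. Whether ungerminated seeds or seed coats were among the harvested material was not tested.

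Among regulatory genes, light signalling was the highest list. All 19 genes reached 1 FPKM with a median of 29.4 FPKM. PHOT1, a blue light receptor of phototropism, led with 174 and 214 FPKM. The cryptochromes CRY1 and CRY2 had means of 123 and 87.0 FPKM, a ratio of 1.39 in replicate 1 and 1.44 in replicate 2. Among the phytochromes PHYA had 46.4 and 66.0 FPKM and PHYB 25.9 and 32.9 FPKM. PHYE and PHYC, with means of 15.1 and 14.5 FPKM, overlapped, and PHYD was lowest at 5.45 and 5.22 FPKM. PIF4 and PIF5, transcription factors that promote elongation in shade and warmth, had means of 120 and 113 FPKM, and the other PIF genes of the list, PIF1, PIF3 and PIF7, had means between 21.7 and 25.8 FPKM. HY5, which acts against them, had 12.6 and 12.0 FPKM.

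All 20 clock genes reached 1 FPKM, with a median of 15.9 FPKM, and 10 were higher in each library. CCA1, a morning gene, had 51.6 FPKM in replicate 1 and 27.8 FPKM in replicate 2. LHY, its close relative, had 16.6 and 7.11 FPKM, and PRR9 had 26.2 and 9.12 FPKM. TOC1, an evening gene, had 13.3 FPKM in replicate 1 and 18.9 FPKM in replicate 2. LUX, of the evening complex, had 9.38 and 17.0 FPKM, and FKF1 had 2.63 and 5.57 FPKM. The 8 genes taken as morning genes (CCA1, LHY, PRR9, RVE4, RVE6, RVE8, LNK1, LNK2) were higher in replicate 1, by 1.13 to 2.88 times. The 8 taken as afternoon or evening genes (GI, TOC1, PRR5, PRR3, ELF3, ELF4, LUX, FKF1) were higher in replicate 2, by 1.11 to 2.12 times. Over all 19020 genes that reached 1 FPKM, 50.8% were higher in replicate 1. Of the other 4 genes, PRR7, which follows PRR9 in the day, went the other way from the morning genes with 77.6 FPKM in replicate 1 and 85.2 in replicate 2, CHE had 66.4 and 94.6 FPKM, ZTL had 27.0 and 22.6 FPKM, and LKP2 had 10.9 and 8.72 FPKM. The sets of 8 were formed after their values were seen, so this split is a description only, and the hour of harvest is not given in the sources used here.

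Flowering time genes reached 1 FPKM in 36 of 39 cases, with a median of 9.06 FPKM. The floral repressors TEM2 (155 and 103 FPKM) and TEM1 (86.3 and 61.6 FPKM) were highest. SVP, a repressor, had 72.7 and 61.8 FPKM and SOC1, an integrator that promotes flowering, had 65.2 and 71.3 FPKM, so their values overlapped. FLC, the repressor that the study was built around, was low, with 2.05 FPKM in replicate 1 and 1.13 in replicate 2, which placed it above 4.97% of the 19020 genes that reached 1 FPKM. Its relative MAF1 had 36.5 and 32.6 FPKM. FT, the mobile flowering signal, had 0.879 and 0.376 FPKM, CO, its activator, had 1.05 and 0.805 FPKM, and TSF was listed at 0. Of the 17 other MIKC-type MADS-box genes 10 reached 1 FPKM (58.8%), beside 56.2% of all identifiers and 69.5% of protein-coding genes. AGL16 led with 19.7 and 19.2 FPKM, and the root genes AGL12 and ANR1 had means of 5.53 and 5.004 FPKM.

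All 16 Trithorax and demethylase genes lay between 4.42 and 14.7 FPKM. The Polycomb genes spread more widely, as 15 of 18 reached 1 FPKM and the highest, VEL1, had 38.6 and 44.1 FPKM. Of the histone H3K27 methyltransferase genes, SWN had 19.9 and 17.5 FPKM, CLF had 9.17 and 10.3 FPKM, and MEA, known from the endosperm, had 0.133 and 0.0423 FPKM. EMF2 and VRN2, alternative partners of these enzymes, had means of 18.2 and 16.4 FPKM, and FIS2, the seed partner, was listed at 0. VIN3, which prolonged cold induces, was listed at 0 in both libraries. ATX1, an H3K4 methyltransferase gene, had 4.36 and 4.59 FPKM, and the H3K27 demethylase genes REF6 and ELF6 had means of 9.89 and 9.96 FPKM. Small RNA pathway genes reached 1 FPKM in 21 of 24 cases, led by AGO1 (74.95 and 80.0 FPKM), the main microRNA effector. The 3 lowest were AGO9, AGO8 and AGO5, all under 0.3 FPKM in both libraries.

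All 26 hormone transcription regulators reached 1 FPKM, with a median of 18.8 FPKM. BES1 of the brassinosteroid pathway led with 174 and 154 FPKM, ARF2 of the auxin pathway had 111 and 110 FPKM, and EIN3 of the ethylene pathway had 85.0 and 89.0 FPKM. Genes that stress induces reached 1 FPKM in 12 of 14 cases and had a median of 3.003 FPKM. COR15A, a cold-regulated chloroplast protein, had 82.9 and 114 FPKM. PR1, a marker of salicylic acid defence, had 0.773 FPKM in replicate 1 and 4.90 FPKM in replicate 2, and the cold factor CBF1 had 1.44 and 0.194 FPKM, so these inducible genes differed several fold between libraries of the same genotype.

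The share of promoters with a motif differed between level classes, but not always in step with the level. The 5 short motifs were searched on both strands of the 300 bases around 26692 protein-coding starts, 250 bases before and 50 after. The I-box, known from promoters of light-regulated genes, occurred in 28 of the 81 genes at 1000 FPKM or more (34.6%), beside 14.6% of all promoters. In the classes up to 100 FPKM its share lay only between 12.95% and 15.5%. The G-box, the core site of bHLH and bZIP factors such as the PIFs and HY5, occurred in 21 of these 81 genes (25.9%), beside 7.79% of all promoters. In the 43 antenna and photosystem genes, most of them among these 81, the I-box was in 41.9% and the G-box in 34.9%. The LHCB6 sequence shown above holds both. Since 61 of the 100 most abundant genes were in the photosynthesis lists, level and gene function cannot be told apart here. In the 14 LHCB genes the shares were lower, with the I-box in 28.6% and the G-box in 21.4%. The G-box was not confined to high levels, as 7 of the 17 seed genes (41.2%) had it. CAB1 itself held neither of these words before its start. The site II core GGGCC was in 9.76% of promoters of genes at 0, in 31.7% from 100 to 1000 FPKM and in 16.0% at 1000 FPKM or more, beside 18.5% of all promoters. The class from 100 to 1000 FPKM holds all ribosomal protein genes above 100 FPKM, and among the 374 ribosomal protein genes GGGCC was in 55.1% and the telo-box in 36.1%, beside 6.16% of all promoters for the telo-box. AT4G27090 shows both. TATAAA was in 52.6% of all promoters and in 44.4% of those at 1000 FPKM or more. A match of letters is a description and not a bound site, and the annotated start can lie away from the start used in seedlings.

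**Figure D4:**
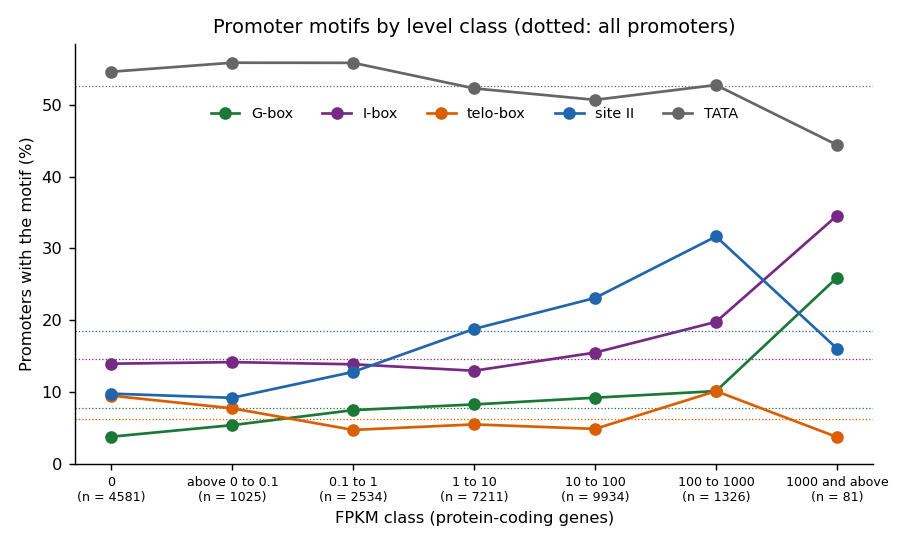
Share of promoters with each of 5 motifs (vertical axis, %) in protein-coding genes of each FPKM class (horizontal axis, with the number of promoters). Solid lines with points are the classes and dotted lines of the same colour are all promoters. The I-box and the G-box are highest in the class at 1000 FPKM or more (34.6% and 25.9%), and site II is highest from 100 to 1000 FPKM (31.7%).

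The 2 libraries agreed closely where levels were high and less where they were low. Across 18973 genes, those whose mean reached 1 FPKM and that were above 0 in both, log2(FPKM + 1) gave a Pearson r of 0.984 and a Spearman rho of 0.983, and 98.3% of genes lay within 2-fold. Genes are not independent replicates, so this describes the libraries. By class, the SD of the log2 ratio of replicate 1 over replicate 2 was 1.12 from 0.1 to 1 FPKM, 0.54 from 1 to 10, 0.31 from 10 to 100, 0.29 from 100 to 1000 and 0.16 at 1000 FPKM or more. The share within 2-fold was 68.4% in the first of these classes and 100% in the last. At 1000 FPKM or more, 74.1% of the genes were higher in replicate 1, by a median of 0.09 on the log2 scale.

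**Figure D5:**
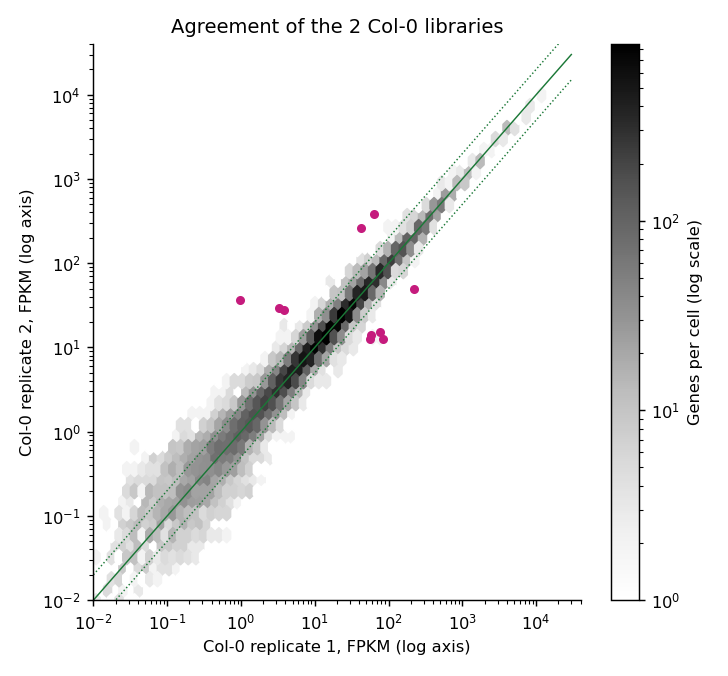
FPKM in the Col-0 replicate 2 library (vertical log axis) against the Col-0 replicate 1 library (horizontal log axis) for genes above 0 in both, with darker cells for more genes. The solid line is equality, the dotted lines are 2-fold, and the pink points are the 10 genes of mean at least 10 FPKM with the largest ratio (5 each way). The cloud narrows with the level, with an SD of the log2 ratio of 1.12 from 0.1 to 1 FPKM and 0.16 at 1000 FPKM or more.

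The width at low levels can be set beside the fragments behind each value. For single-transcript genes of 1500 to 3500 bases, low values were taken from a fixed window of 0.04 to 0.08 FPKM times kilobases. Their median was 0.0549 in replicate 1 (131 genes) and 0.0516 in replicate 2 (99 genes), taken here as the worth of 1 fragment. The median could only fall inside that window, so this worth is an assumption. On that reading 1 FPKM in a transcript of 1 kb stands for about 18.2 fragments in replicate 1 and 19.4 in replicate 2, with a counting error of 23.4% and 22.7%. Values such as 0.238 FPKM for AP1 thus rest on few fragments. For very short transcripts 1 fragment may have weighed far more. AT2G36030 and AT2G15128 share a transcript length of 213 bases. Their values in replicate 1, 82.8 and 55.2 FPKM, were 3 and 2 times the same step of 27.6 FPKM. Both had 12.6 FPKM in replicate 2, which is below that step, so the step does not hold in both libraries. Whether it stands for 1 fragment was not tested. Most short genes had no value at all, with 344 of 362 protein-coding genes under 250 bases at 0 in both libraries, against 1429 of 12498 genes of 1000 to 2000 bases.

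Some genes differed between the libraries by more than the rest of their class. Of 11472 genes whose mean reached 10 FPKM and that were above 0 in both, 67 were over 2-fold higher in replicate 1 and 121 over 2-fold higher in replicate 2. The 5 highest ratios in replicate 1 included AT2G36030, AT4G26290 and AT2G15128, all with transcripts under 300 bases. The others were AT2G30766 (218 and 49.3 FPKM) and AT1G47400 (57.6 and 13.9 FPKM), both with longer transcripts. RefSeq gives these last genes no product name beyond uncharacterized protein, and their function was not looked at here. The 5 highest ratios in replicate 2 were those of AT5G45430, PHI-1, EXLA1, EXO and TCH4. TCH4, a xyloglucan endotransglucosylase known as touch-induced, had 62.6 FPKM in replicate 1 and 381 FPKM in replicate 2. EXO, a gene of the phosphate-responsive 1 family, had 41.8 and 260 FPKM, PHI-1 of the same family had 3.30 and 29.1 FPKM, and EXLA1, an expansin-like gene, had 3.86 and 27.9 FPKM. The protein kinase gene AT5G45430 had 0.960 and 36.6 FPKM, while AT5G45428, the neighbour by identifier, went the other way with 82.3 and 22.4 FPKM.

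Another 16 genes were listed at 0 in 1 library and at 10 FPKM or more in the other, 8 in each direction. Of these, 9 had transcripts shorter than 300 bases. The largest was AT5G18661 with 1092 FPKM in replicate 1 and 0 in replicate 2, next to PCB2, a chlorophyll synthesis gene that had 120 and 126 FPKM. AT5G04790 had 0 and 254 FPKM, with a transcript of 165 bases, and MIR828, a microRNA precursor gene, had 0 and 100.5 FPKM. A value of 0 in such a gene may be a failed estimate, and the values of these 16 genes are given here per library only.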

How the data were processed

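mRNA of whole seedlings was caught on poly-T beads and sequenced on the Illumina platform. The deposited tables give FPKM per gene, which the authors computed against TAIR10. Per the study's methods, reads were mapped with TopHat and compared with cuffdiff, whereas the submitters' processing notes name STAR 2.5.2b and Cuffdiff, so the aligner is uncertain. The annotation, the strand setting and the treatment of reads that fit several genes are not given in the sources used here. The tables hold no counts, and the depth of the libraries was judged only from the smallest values.

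The 2 Col-0 columns were taken by their names. The numbers in the names of the 2 tables run against those of the columns, and the column numbers were followed. The other 2 columns of values, of the plants with COLDAIR, were not used.

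Levels are the mean of the 2 libraries, with no rescaling. No test was made, since nothing was compared between groups. Gene identifiers were matched by locus tag to RefSeq (TAIR10.1), where 31416 of 33854 matched, and 1973 of the 2438 others carry a suffix. Transcript lengths are those of the longest RefSeq transcript. Ribosomal protein and histone genes were taken by their product names, which also take in proteins that share a domain with them. Promoters were read from the TAIR10.1 genome. Python 3.11 with pandas and numpy was used, and the steps were tested on simulated data.

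The genes named were the 20 with the highest mean, members of the lists, the 5 largest ratios each way at 10 FPKM or more, and genes at 0 in 1 library and at 10 FPKM or more in the other. Others are said to be chosen after their values were seen. The members and lists were chosen with earlier results of these data known. The alternatives tried were other thresholds, pseudocounts of 0.1 and 1, filters, scalings, each library alone, coding genes only, longer transcripts only and another TATA window.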

Additional observations from a re-analysis of the deposited data

How the results depend on the processing

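The limits are 2 libraries, no counts, and an uncertain aligner. The count of genes at 1 FPKM or more stayed within 1.5 times under every alternative run for it. The shares in the top 10, 100 and 1000 genes stayed within 1 SD with coding genes only and with longer transcripts only. Each library alone lies within 1 SD of the mean of the 2 by construction, so those alternatives could not move the shares. No paired analysis was possible because nothing was compared between groups. Of 165 alternative values over 42 results, 29 moved by more than the spread between libraries or, for the agreement and the motif shares, by more than 1 percentage point or the binomial interval. Rescaling and the choice of members change a median by construction, and a shorter window inside the first can only lower the TATAAA share. For the others the cause was not tested.

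Rescaling each library to the sum of TPM values raised the list medians, to 4792 FPKM for the LHCA antenna, 3620 for photosystem I, 983 for electron transport, 643 for photorespiration, 242 for reference genes, 9.05 for vascular tissue, 2.05 for other MIKC MADS-box genes, 9.95 for Polycomb, 6.72 for Trithorax and demethylases, 6.17 for the small RNA pathway, 19.9 for hormone regulators, 128 for ribosomal proteins and 84.4 for histones. With members above 0 in both libraries only, the medians, again in FPKM, were 3.41 for the shoot meristem, 11.6 for vascular tissue, 0.108 for anther and pollen and 1.05 for seed. They were 3.86 for other MIKC MADS-box genes, 10.3 for Polycomb, 162 for ribosomal proteins and 86.6 for histones. With 1 library alone, the medians ranged between 973 and 1088 for carbon fixation, 20.7 and 22.8 for leaf polarity, 1.71 and 1.77 for other MIKC MADS-box genes, 9.32 and 9.87 for Polycomb, 3.23 and 4.60 for stress genes, and 0.103 and 0.444 for seed genes, the largest change by ratio. The share within 2-fold was 97.2% with a pseudocount of 0.1. TATAAA was in 22.2% of promoters at 1000 FPKM or more within the 100 bases before the start, beside 26.05% of all promoters in that window.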
